A study of Mus musculus with 89 samples.

Results

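The genes described here make, sense and break down eicosanoids, the signalling lipids derived from polyunsaturated fatty acids. They were taken from a list of 34 genes covering fatty acid desaturation, arachidonate release, leukotriene and prostaglandin synthesis and the receptors of both families. All 34 were among the 19962 gene targets of the panel. The list follows gene roles and uses no measured threshold, but it was drawn up with earlier results of these data known.

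Phospholipase A2 releases arachidonate from membranes, and separate enzyme families act on it. The 5-lipoxygenase pathway, which needs the helper protein encoded by Alox5ap, makes leukotrienes, and leukotriene B4 is a strong attractant of neutrophils. The cyclooxygenases encoded by Ptgs1 and Ptgs2 make prostaglandin H2, which terminal synthases turn into prostaglandin E2, prostaglandin D2, prostacyclin and thromboxane.

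The study used GeoMx digital spatial profiling, in which ultraviolet light releases gene tags from chosen areas of a stained section, on fresh frozen sections of spontaneous mouse squamous cell carcinoma. It gave 89 areas labelled as neutrophil segments, on 3 slides annotated as naive (before treatment), acute and relapse (both after treatment), with the aim of locating neutrophil states in the tumour under immunotherapy. By position, the segments fell into 15 naive stroma, 13 naive interface, 14 naive within tumour, 9 acute stroma, 2 acute interface, 14 relapse stroma and 22 relapse interface segments. The scan of the naive slide names an HRas tumour and that of the relapse slide a DMBA tumour, so that stage, slide and tumour model cannot be told apart. The stage names also disagree between annotation columns: the slide classed as relapse is named treated in the slide name, and the slide classed as acute is named treated in the scan name. Plate, taken here from the letter in the segment names, was confounded too. The 42 naive segments carried G, the 36 of relapse H, and the acute ones were split into 4 and 7. A plate term in comparisons across stages therefore leans on the acute segments. Agent, dose, genotype, age and animal were not given in the sources used here. Segments therefore share animals and tumours in an unknown way, and p-values over segments are too small throughout. Their positions fell into 14 separate pieces of tissue, used below to see how far a result rests on 1 piece.

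Depth is the number of tag counts above the floor of 1 that every value carries. It ran from 573 to 208675 per segment with a median of 7216, and the 11 acute segments held 41.2% of it. Of all values, 69.1% lay at the floor. Because the normalised signal is a count divided by a factor of the segment, 1 count was worth between 0.288 and 3.74 units of signal, so that a gene at the floor has a different signal in different segments. The 15 neutrophil markers listed, S100a8 and Ly6g among them, took 1.14 times the share of an average set of 15 targets over all segments, from 0.904 times in naive interface to 1.49 in relapse interface and 2.52 in the 2 acute interface segments. Of the 15, 2 passed the filter used for testing. All 9 macrophage, 8 fibroblast and 11 keratinocyte markers passed it.

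The 34 genes were measured near background. Their summed counts over 89 segments ran from 25 for Alox12b to 146 for Ptges3, with a median of 64 against 69 for all targets. Of the 34 genes, 11 lay above the median of all targets and 6 above the mean of 90.33. Together they took 2309 of 1803197 counts, or 12.8 per 10000 (exact Poisson 95% interval 12.3 to 13.3, counting error only), where 34 average targets would take 17.03. The geometric mean of the 34 genes was above that of the negative probes in 78 of 89 segments, by a median ratio of 1.08, and above that of all targets in 22.

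A target was tested where it exceeded the limit of quantitation, set by the negative probes, in at least 9 segments. The members tested were 7, or 20.6%, against 25.5% of all targets. These were Ptges3 (24 segments above the limit), Hpgd (14), Alox5ap (13), Ltb4r2 (12), Alox15 (11), Fads3 (11) and Ptges (11). Alox5 and Ptgis lay just outside with 8 segments each, and Ptges2 exceeded the limit in none.

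**Figure D1:**
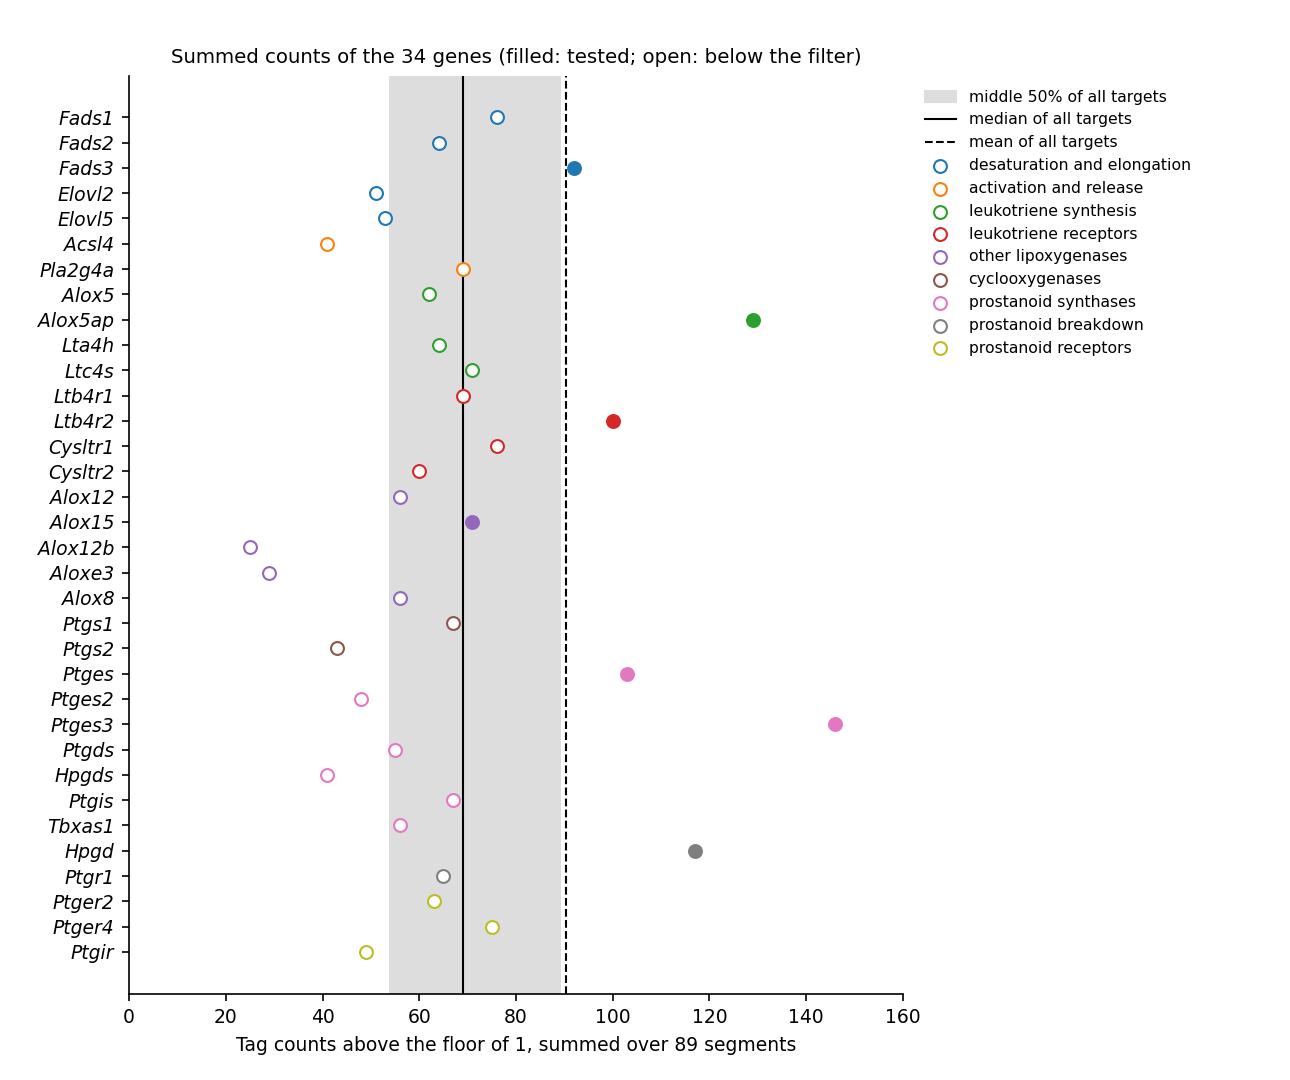
Summed tag counts above the floor over 89 segments (x axis) for each of the 34 genes (y axis), coloured by role, with filled points for the 7 tested genes. The grey band lies between the quartiles of all targets. Ptges3 with 146 counts, Alox5ap with 129 and Hpgd with 117 lie farthest to the right, and Alox12b with 25 farthest to the left.

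The front of the pathway stood close to the 34 genes together, which reached 0.752 times the share of 34 average targets. The desaturases and elongases, which lengthen dietary fatty acids and add double bonds to make arachidonate, reached 0.744 times the share of as many average targets. Fads1 and Fads2, the delta-5 and delta-6 desaturases, had 76 and 64 counts, and the elongases Elovl2 and Elovl5 had 51 and 53. Fads3, the related desaturase that acts on sphingoid bases, had the most, 92 counts, in 30 segments. Per 10000 counts of depth, Fads3 was at 0.660 in naive stroma, 0.609 in naive interface, 0.249 within naive tumour, 0.544 in acute stroma, 0.350 in relapse stroma and 0.295 in relapse interface. The signals of these 6 classes overlapped, and no comparison passed the test (limma, smallest adjusted p = 0.361, for a log2 difference of -0.36, SE 0.185, within naive tumour against naive stroma).

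Arachidonate activation and release stood at 0.609 times the average share. Pla2g4a, the cytosolic phospholipase A2 that cuts arachidonate from membranes, had 69 counts. Acsl4, which loads arachidonate onto coenzyme A and is known as a promoter of ferroptosis, had 41, of which 16 lay in 5 of the 15 naive stroma segments and 2 in 2 of the 13 naive interface segments. Neither gene passed the filter. With no filter, Acsl4 was lower in naive interface than in naive stroma (log2 difference -0.43, limma adjusted p = 0.0440), in a fit that called 3.85% of all 19962 targets there. Since both groups were mostly at the floor, this difference rests on a few counts.

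Leukotriene synthesis came closest to the average among the synthetic branches, at 0.902 times, because of 1 gene. Alox5ap had 129 counts and ranked above 91.5% of all targets. Its partner Alox5, the 5-lipoxygenase itself, had 62. Lta4h, which makes leukotriene B4, had 64 counts, and Ltc4s, which makes leukotriene C4, had 71.

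Alox5 was untested, and few counts stood behind its values in each class. Of its 62 counts, 40.3% lay in acute segments, which held 41.2% of all depth. In naive interface it had 23 counts, in 8 of 13 segments and above the limit of quantitation in 5, or 0.737 per 10000 counts of depth. In naive stroma it had 9 counts in 5 of 15 segments, or 0.205 per 10000. In relapse stroma and relapse interface it had 0 counts of 85831 and of 101558, which allows up to 0.350 and 0.295 per 10000. The few remaining counts lay within naive tumour. With no filter, the naive interface to stroma difference was 0.33 on the log2 scale and did not pass (limma adjusted p = 0.259).

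Alox5ap, on chromosome 5 (GRCm38 chr5:149265004-149288153), had its highest typical signal in naive stroma. The normalised signal there ran from 1.87 to 26.2 over 15 segments, with a median of 6.23 (counts from 1 to 12, median 2). In naive interface it ran from 0.748 to 9.35 over 13 segments, with a median of 2.24 (counts from 1 to 5, median 1). The 2 groups overlapped over most of their range, but 11 of 15 stroma and 6 of 13 interface segments had a count above the floor. The lowest interface signal, 0.748, was a segment at the floor, where the signal is set by the normalisation factor.

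In the fit over all classes, Alox5ap was lower in naive interface than in naive stroma by a log2 difference of -0.67 (SE 0.232, 95% interval -1.13 to -0.21, limma adjusted p = 0.0444). It was the only one of the 7 tested members called there, while 10.7% of all 5087 tested targets were called, nearly all of them lower (518 of 546). The median of all tested targets was -0.14 in this comparison, so that the difference relative to it was -0.53. In data simulated with no change, the same fit still called some targets in this comparison, more than in any of the other comparisons, so that its calls here are less certain than the adjusted p states. After scaling counts to equal depth in place of the deposited factors, the median of all targets moved to 0.02, Alox5ap to -0.43 (-0.45 relative to that median), and the call was lost (limma adjusted p = 0.634). With no filter Alox5ap did not pass either (limma adjusted p = 0.0632). Of its 13 segments above the limit of quantitation, 3 were naive stroma segments of piece 1, 1 of piece 3 and 1 of piece 5. Without these Alox5ap would have fallen short of the 9 segments needed for testing. It thus entered the test through the class where it was high. As a share of depth, Alox5ap took 1.14 per 10000 in naive stroma (exact Poisson 95% interval 0.844 to 1.499) and 0.481 in naive interface (0.269 to 0.793). In such segments fewer cells of a type and less RNA per cell cannot be told apart.

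The call depended on tissue pieces. It was lost with the piece as a random block (-0.64, limma adjusted p = 0.0922) and on leaving out any 1 of naive pieces 1, 2, 4 and 5 or relapse pieces 1 and 3, while the difference stayed between -0.84 and -0.48. Naive piece 4, the one with most naive segments and more than 1 interface segment beside stroma, had the opposite order: Alox5ap took 0.579 per 10000 in its 8 interface segments and 0.156 in its 2 stroma segments. In naive piece 1 the 1 interface segment had 1 count above the floor, a share of 1.62 per 10000, against 1.28 in its 3 stroma segments. The pieces 3 and 5, which gave 10 of the 15 stroma segments, had no interface segment.

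Markers of other cells moved with this comparison. Macrophages, which also express Alox5ap, had 7 of their 9 tested markers lower in naive interface, with a summed share of 2.87 to 139 per 10000 in stroma (median 62.4) and 2.18 to 183 in interface (median 4.46). Fibroblasts had 8 of 8 lower, with 15 to 354 in stroma (median 209) and 7.93 to 335 in interface (median 14.7). None of the markers in these lists was at 0 counts in either class. Of the neutrophil list, 2 of 15 markers were tested and neither passed, with a summed share of 3.19 to 10.8 in stroma (median 6.82) and 0 to 10.3 in interface (median 7.14). The part of these cells in the Alox5ap difference was not tested.

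In the other classes Alox5ap showed no called difference. Within naive tumour the signal ran from 1.87 to 18.7 (median 3.74, 14 segments), and the log2 difference from naive stroma was -0.49 (SE 0.239, limma adjusted p = 0.315). In acute stroma it ran from 1.496 to 4.89 (median 3.74, 9 segments), with a difference from naive stroma of -0.62 (SE 0.262, limma adjusted p = 0.385). No acute stroma segment exceeded the limit of quantitation, whose median was 9.25 counts there against 2 in naive stroma. In relapse stroma the gene took 1.05 per 10000, yet 7 of its 9 counts lay in the 2 segments of relapse piece 2, and its median signal of 3.74 was the value of 1 count. Relapse interface was at 0.591 per 10000, with a signal of 1.87 to 11.2 and the same median.

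**Figure D2:**
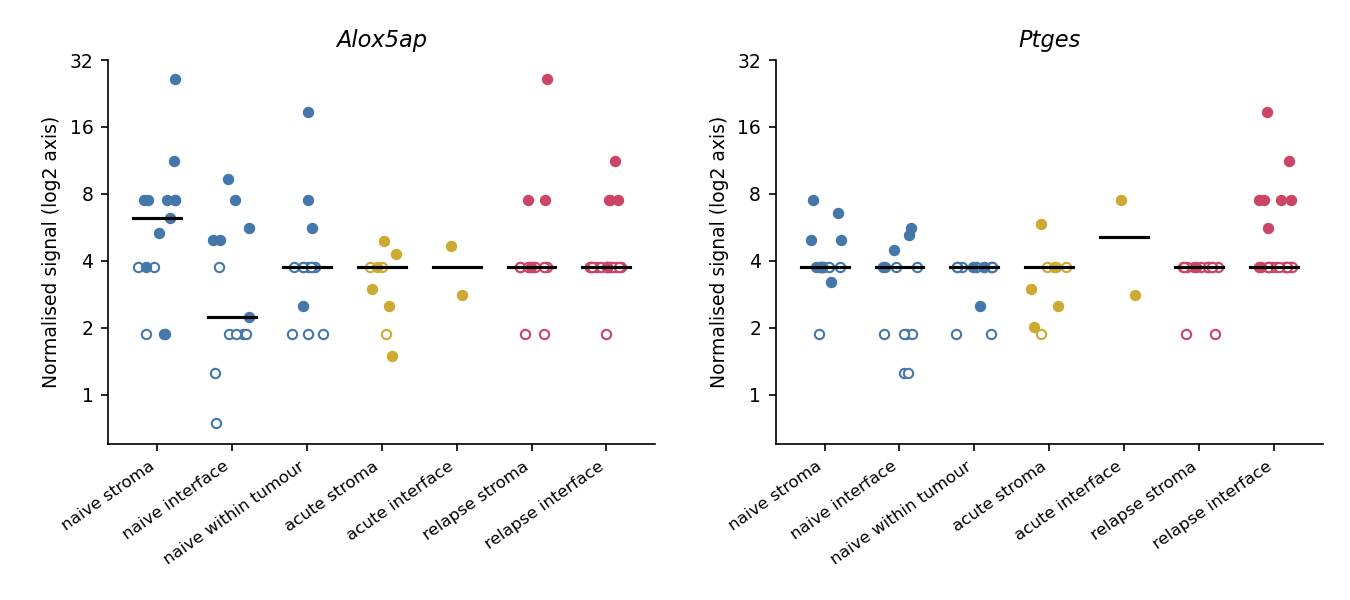
Normalised signal (log2 axis) of Alox5ap and Ptges in each segment of the 7 classes; bars mark the median, filled points have a count above the floor of 1 and open points are at the floor. Alox5ap has a median of 6.23 in naive stroma and 2.24 in naive interface with overlapping points; Ptges reaches 18.7 in relapse interface and no more than 3.74 in relapse stroma.

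The leukotriene receptors stood at 0.844 times the average share. Ltb4r1, the high-affinity leukotriene B4 receptor of neutrophils, had 69 counts. Cysltr1 and Cysltr2, the receptors for cysteinyl leukotrienes, had 76 and 60. Ltb4r2, the low-affinity receptor, which also binds a cyclooxygenase product and is known from keratinocytes, led with 100 counts. Its share was 0.387 per 10000 in naive stroma, 0.769 in naive interface and 0.997 within naive tumour. Those classes overlapped, with medians of 3.74 for the signal in each. A signal of 3.74 is 1 count at the lowest factor and more counts at higher ones, so that equal medians do not show equal counts. The log2 difference of interface from stroma was 0.18 (SE 0.195, limma adjusted p = 0.627). In relapse the shares were 0.233 in stroma and 0.591 in interface, from 2 and 6 counts.

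The other lipoxygenases had the lowest share of the role groups, 0.525 times the average. Alox12b and Aloxe3, which act one after the other in building the water barrier of the epidermis, had 25 and 29 counts and ranked above only 0.817% and 1.55% of all targets. Alox12, the platelet-type enzyme, and Alox8, an epidermal enzyme of the mouse, had 56 each. Alox15, which makes 12- and 15-hydroperoxides and precursors of pro-resolving lipids, had 71 counts. Alox15 took 0.769 per 10000 in naive interface, with 5 of 13 segments above the limit of quantitation, and 0.273 in naive stroma, with none of 15. The naive stroma segments with Alox15 counts of 3 or 4 had limits of 6.22 to 9.52. Over all targets, 16.7% of values exceeded the limit in naive interface and 10.5% in naive stroma. It was at 0.166 within naive tumour, 0.264 in acute stroma, 0.583 in relapse stroma and 0.886 in relapse interface. These ranges overlapped, and the largest fitted difference for Alox15, within naive tumour against naive interface, was -0.39 on the log2 scale (SE 0.208, limma adjusted p = 0.681).

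The cyclooxygenases were at 0.609 times the average share. Ptgs1, the constitutive enzyme, had 67 counts, and Ptgs2, the inducible COX-2, had 43, above 10.1% of all targets. Ptgs2 exceeded the limit of quantitation in 2 segments, 1 in naive stroma and 1 in acute stroma. Its share ran from 0.0830 per 10000 within naive tumour to 0.342 in acute stroma and 0.397 in acute interface, the last from 4 counts in 1 of 2 segments. Ptgs2 was below the filter. In the fit with no filter limma called it in none of the 9 comparisons; its smallest adjusted p was 0.323, at -0.26 in naive interface against naive stroma.

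The prostanoid synthases stood at 0.816 times the average share, with the highest counts of single genes in Ptges3 and Ptges, which make prostaglandin E2. Ptges3, the cytosolic synthase that is also the widely expressed HSP90 cochaperone p23, had 146 counts, above 93.8% of all targets. Ptges, the inducible microsomal synthase coupled to COX-2, had 103, and Ptges2 had 48. Ptgds and Hpgds, the synthases of prostaglandin D2, had 55 and 41, Ptgis for prostacyclin 67 and Tbxas1 for thromboxane 56.

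Ptges, on chromosome 2 (GRCm38 chr2:30889471-30931020), was the only tested member called for an interface to stroma difference unlike in relapse and naive. Stage cannot be told apart from slide and tumour model there. In relapse interface its signal ran from 3.74 to 18.7 over 22 segments with a median of 3.74, and 8 segments had a count above the floor. In relapse stroma it ran from 1.87 to 3.74 over 14 segments with the same median, and 1 segment had a count above the floor. Both relapse groups thus overlapped at the value of 1 count, and the segments above 3.74 were all in the interface. In naive stroma the signal ran from 1.87 to 7.48 (median 3.74, 15 segments) and in naive interface from 1.25 to 5.61 (median 3.74, 13 segments).

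For Ptges the interface to stroma difference was larger in relapse than in naive by 0.83 on the log2 scale (SE 0.246, 95% interval 0.34 to 1.31, limma adjusted p = 0.0364). It was the 1 called member of 7, where 3.54% of all tested targets were called, 178 of those 180 in the same direction. Relative to the median of all targets, 0.16, the Ptges value was 0.66. It was also 0.66 relative to the median after scaling counts to equal depth, where the value itself was 0.64 and no longer passed (limma adjusted p = 0.384). With that scaling 2 targets were called in all, 1 in each direction. Of the 11 segments with Ptges above the limit of quantitation, 1 each lay in relapse interface of pieces 1, 3 and 4. Without these Ptges would have fallen short of the 9 segments needed for testing. It thus entered the test through the class where it was high, and without the filter the call was lost. In data simulated with no change, the main fit also called a few targets in this contrast, so that its adjusted p is too small.

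Neither part of that contrast passed alone with all segments. Relapse interface minus relapse stroma was 0.43 for Ptges (SE 0.165, limma adjusted p = 0.999 with an unadjusted p of 0.00913), in a comparison that called 0% of all targets, with 122 at an unadjusted p under 0.05. Naive interface minus naive stroma was -0.39 (SE 0.182, limma adjusted p = 0.158), and it passed without naive piece 2 (-0.62, limma adjusted p = 0.0279). Relapse interface minus naive interface was 0.64 (SE 0.188, limma adjusted p = 0.0558), where 1.45% of all targets were called, and this value passed, among the alternatives run, only without the depth covariate (0.63, limma adjusted p = 0.0106) or without acute piece 5, naive piece 1 or naive piece 2. With the plate as a covariate it was 0.62 (limma adjusted p = 0.739), where 4 targets in place of 74 were called. The stage difference of Ptges was 0.82 with that covariate (limma adjusted p = 0.0374). That value could hardly move, because the naive segments were all on plate G and the relapse segments all on plate H. A plate term thus cancels from the stage difference and tests nothing there.

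The counts behind Ptges were few. Relapse interface had 13 counts, or 1.28 per 10000 (exact Poisson 95% interval 0.682 to 2.19), and relapse stroma 1 count, or 0.117 (0.00295 to 0.649). The 13 counts were spread over 3 pieces, with 4 in 14 segments of piece 1, 5 in 7 segments of piece 3 and 4 in the 1 segment of piece 4. Piece 3, which held both positions, had 1.22 per 10000 in interface and 0 in its 9 stroma segments. In naive stroma Ptges took 0.682 per 10000, in naive interface 0.513, within naive tumour 0.249, in acute stroma 0.482 and in acute interface 0.894.

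The naive side of the Ptges contrast rested on naive piece 4. Its 8 interface segments had 0.316 per 10000 and a median signal of 1.87, against 1.09 and 5.14 in its 2 stroma segments, while the 4 interface segments of naive piece 2 had 0.863. Most of those 8 segments were at the floor for Ptges, and 1.87 is the value of 1 count at their commonest factor. In relapse interface 1 count was worth a median of 3.74. Segments at the floor thus differ in signal between these classes through the factor alone. Without naive piece 4 the stage difference fell to 0.31 (limma adjusted p = 0.683) and naive interface minus naive stroma turned to 0.13. The call was also lost without naive pieces 1 or 5 or relapse pieces 1, 3 or 4 and with the piece as a random block (0.85, limma adjusted p = 0.0570).

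Markers of other cells moved with the same contrast as Ptges. Of the 8 fibroblast markers, 6 had a higher interface minus stroma value in relapse than in naive (Col1a1, Col1a2, Col3a1, Dcn, Lum and Sparc). In naive all 8 were called lower in the interface (median log2 difference -2.12), while in relapse 0 were called (median -0.13). Their summed share was 5.78 to 174 per 10000 in relapse interface (median 40.2). In relapse stroma it was 6.86 to 460 (median 15.2), beside the naive values above. The same held for 2 of 9 macrophage markers (C1qa and Apoe), with 0 to 62.3 in relapse interface (median 8.42) and 0 to 194 in relapse stroma (median 10.8). The median log2 difference of the macrophage list was -1.1 in naive, with 7 called lower, and -0.33 in relapse, with 0 called. Of the 11 keratinocyte markers, 3 also had a higher value in relapse (Krt5, Krt16 and Dsp). The median summed shares were 142 in relapse interface, 71.6 in relapse stroma, 8.62 in naive interface and 9.603 in naive stroma. The median log2 difference of this list was -0.29 in naive and 0.55 in relapse, where 0 were called.

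Keratinocyte markers also differed between the interfaces. Of 11 tested, 6 were higher in relapse interface than in naive interface (Krt5, Krt14, Krt6a, Krt16, Krt17 and Dsp), with a summed share of 24.4 to 383 per 10000 (median 142) against 5.77 to 67.9 (median 8.62). All 3 tested B and plasma cell markers were higher too, with 0 to 570 per 10000 (median 94.5) against 0.727 to 6.86 (median 3.36). With the plate as a covariate, 2 of the 11 keratinocyte markers (Krt5 and Krt16) and 0 of the 3 B and plasma cell markers were called by limma. All 11 keratinocyte markers had counts in both classes, while 1 of the 5 B and plasma cell markers listed was at 0 in relapse interface. The part of all these cells in the Ptges difference was not tested.

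Ptges3 had most counts for its depth in relapse stroma, 2.10 per 10000 (exact Poisson 95% interval 1.24 to 3.31), with 5 of 14 segments above the limit of quantitation. It was at 0.773 in naive stroma, 0.801 in naive interface, 0.332 within naive tumour, 0.746 in acute stroma and 1.28 in relapse interface. The segment signals overlapped, from 1.87 to 22.4 in relapse stroma and from 2.81 to 11.2 in naive stroma. The median of both was 3.74, which is 1 count at the lowest factor and more counts at higher ones. The difference between these 2 classes was 0.18 on the log2 scale (SE 0.222, limma adjusted p = 0.878). Within naive tumour Ptges3 was -0.46 from naive stroma (SE 0.221, limma adjusted p = 0.310), in a comparison that called 4.05% of all targets and no member.

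Prostanoid breakdown stood at 1.007 times the average share. Hpgd, the dehydrogenase that inactivates prostaglandin E2, had 117 counts, 22.2% of them in the deepest acute stroma segment. Ptgr1, a reductase acting on leukotriene B4 and on prostaglandin breakdown products, had 65. Hpgd took 0.728 per 10000 in naive stroma, 0.769 in naive interface, 0.664 within naive tumour and 0.684 in acute stroma, where 26 of the 44 counts lay in that deepest segment and the share without it was 0.414. In relapse interface it had 4 counts, or 0.394 per 10000, and in relapse stroma 0 of 85831, which allows up to 0.350. Hpgd was -0.38 in relapse stroma against naive stroma on the log2 scale (SE 0.203, limma adjusted p = 0.542), in a comparison that called 1.61% of all targets and no member.

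The prostanoid receptors were at 0.690 times the average share. Ptger2 and Ptger4, the receptors through which prostaglandin E2 raises cyclic AMP in myeloid and T cells, had 63 and 75 counts, and Ptgir, the prostacyclin receptor, had 49. None of these receptors passed the filter.

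As a group the 34 genes did not separate the classes. Their pooled share was 12.4 per 10000 in naive stroma, 14.04 in naive interface, 11.96 within naive tumour, 13.2 in acute stroma, 13.4 in acute interface, 10.1 in relapse stroma and 10.9 in relapse interface. Single segments ran from 6.86 to 17.6 in naive interface and from 0 to 52.4 in relapse interface, and the ranges of all 7 classes overlapped. In 7 segments, 3 within naive tumour and 4 of relapse interface, all 34 genes were at the floor. This order changed when the floor was kept. With the floor of 1 kept in each count, relapse stroma was at 15.41 and relapse interface at 15.89, which made the relapse interface the highest and acute stroma, at 14.05, the lowest. Keeping the floor adds 1 to every target and so draws the shares of shallow segments towards 17.03, the share of 34 average targets. The changed order follows from depth and says nothing about these genes. Values above the limit of quantitation made up 17.2% of the members' values in naive interface against 16.7% for all targets, and 6.81% against 8.35% over all 89 segments.

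**Figure D3:**
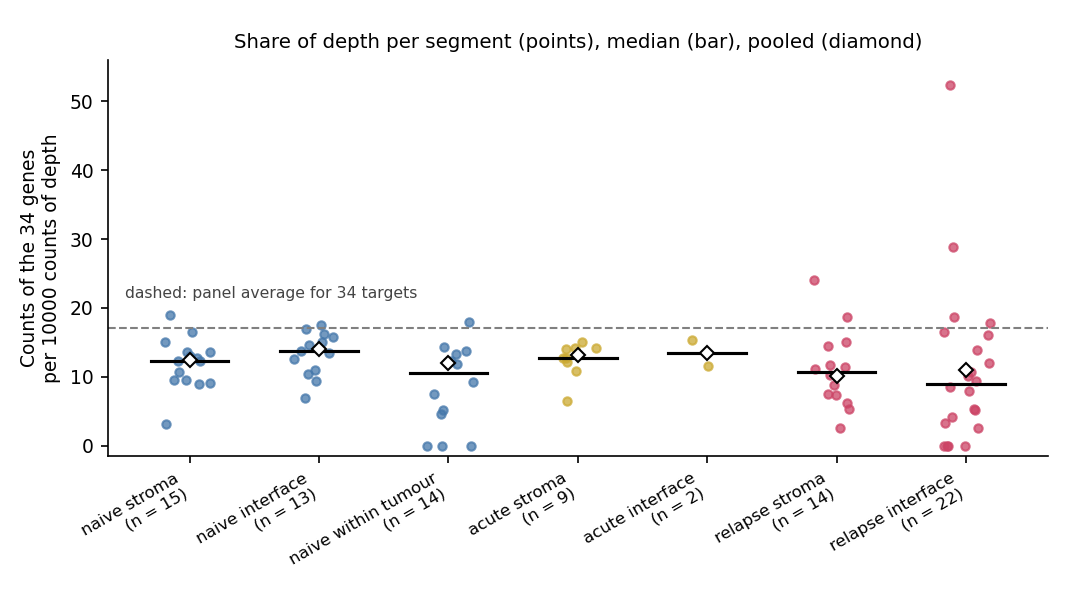
Counts of the 34 genes per 10000 counts of depth (y axis) in each segment, with the class median as a bar and the pooled class value as a diamond; the dashed line is the share of 34 average targets, 17.03. The pooled values lie between 10.1 in relapse stroma and 14.04 in naive interface with the floor subtracted, and the classes overlap. With the floor kept the order turns, because shallow classes are then drawn towards the dashed line.

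Over 9 comparisons and 7 tested genes there were 63 values, of which 2 passed and 8 had an unadjusted p under 0.05. The 95% intervals lay between -1.14 and 1.31 on the log2 scale, and several of them reached beyond a difference of 1 in size. No member passed in acute stroma against naive stroma, where 0.118% of all targets were called, in relapse stroma against acute stroma, where 0.983% were, or within naive tumour against naive interface, where limma called 0% and 369 targets had an unadjusted p under 0.05. Several of these comparisons share naive stroma or naive interface and are not independent.

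**Figure D4:**
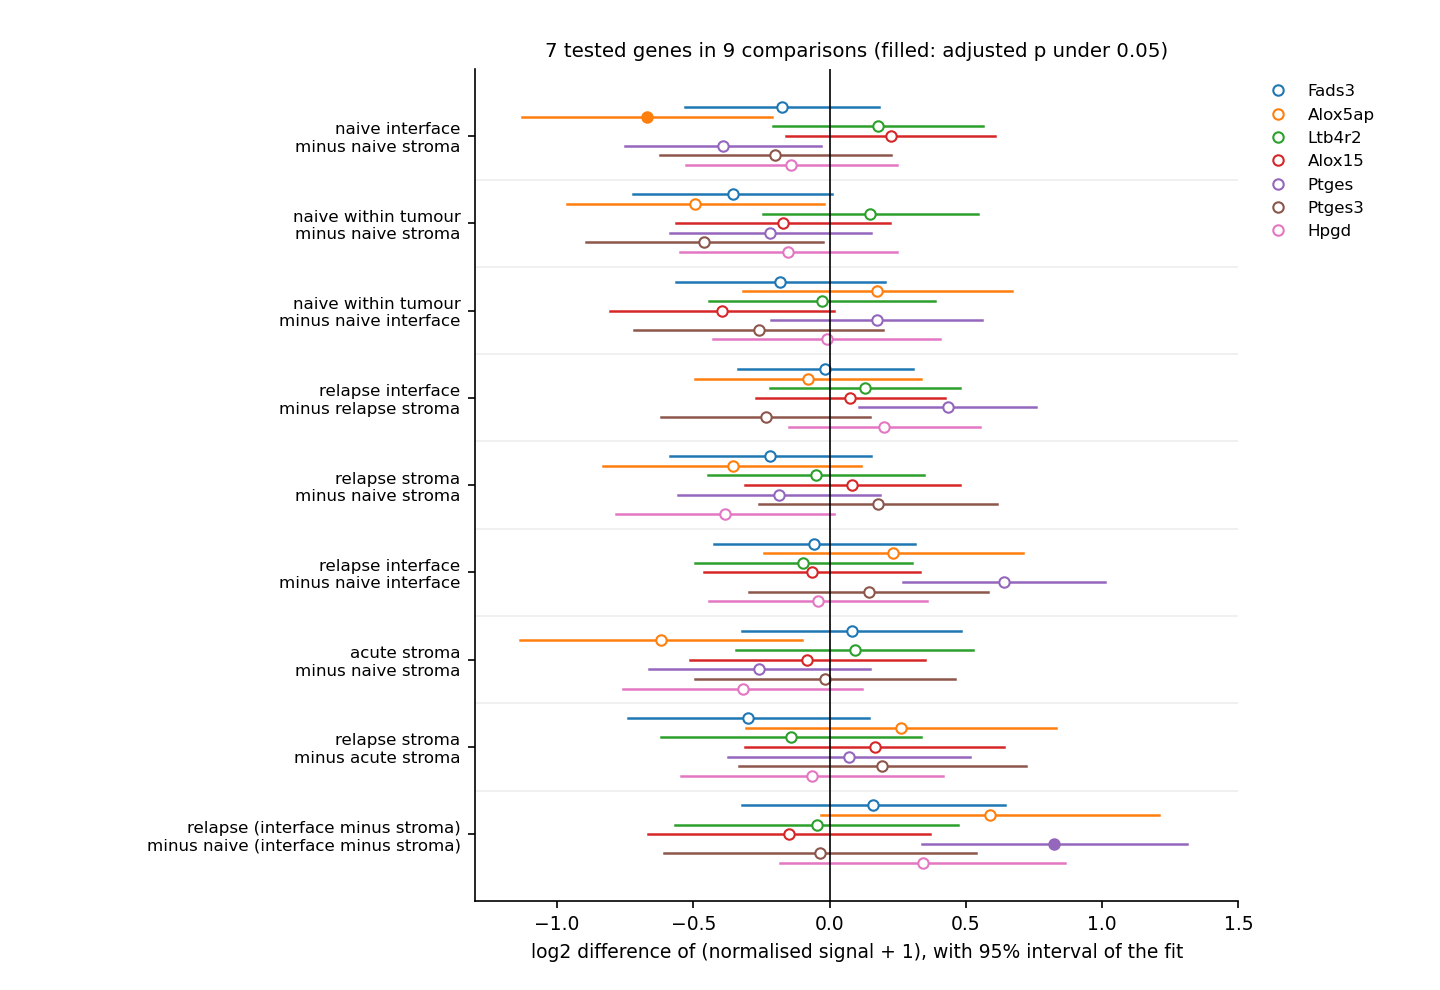
Fitted log2 difference of (normalised signal + 1) with its 95% interval (x axis) for the 7 tested genes in 9 comparisons (y axis); filled points have a limma adjusted p under 0.05. The filled points are Alox5ap at -0.67 in naive interface minus naive stroma and Ptges at 0.83 in the difference between relapse and naive.

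Other genes of lipid mediator and fatty acid metabolism were read from the same fit. All 59 listed were on the panel and 17 were tested. Fabp4, the adipocyte and macrophage fatty acid binding protein, was lower in naive interface than in naive stroma (log2 difference -1.70, limma adjusted p = 2.73e-05) and within naive tumour (-1.65, limma adjusted p = 0.00012). Lpcat3, which puts arachidonate into phospholipids, was lower within naive tumour than in naive stroma (-0.70, limma adjusted p = 0.0340). Fabp5, the epidermal fatty acid binding protein, with 902 counts, was higher in relapse interface than in naive interface (1.92, limma adjusted p = 0.000318) and in relapse stroma than in acute stroma (1.75, limma adjusted p = 0.0217). Neither Fabp5 call held with the plate as a covariate (2.44, limma adjusted p = 0.445, and 2.002, limma adjusted p = 0.0660). The interface minus stroma value of Fabp4 was higher in relapse than in naive by 1.51 (limma adjusted p = 0.0252). It started from the -1.70 of naive, and within relapse 0 of the 17 tested genes were called. None of the other 14 tested genes of this list was called in the 9 comparisons.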

How the data were processed

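GeoMx whole transcriptome tags were read in 89 segments. Per the labels' protocols, areas of fresh frozen sections were chosen by morphology and staining, and mm10 and Seurat are named in the submitters' processing notes; the steps from reads to counts are not given in the sources used here. The deposited matrix holds normalised signal, which the authors made by dividing each count by an upper-quartile factor of the segment. That factor is the deposited ratio in the segment annotation, and the class of each segment (deposited as text under other) comes from it too. Signal times factor gave whole numbers for 99.981% of values within 1e-06 (99.9858% without the negative probe), with a floor of 1; depth is the sum of counts above the floor.

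Targets above the limit of quantitation (the higher of 2 counts and the negative probes' geometric mean times their geometric SD to the power 2) in 10% of segments or more were tested, 5087 of 19962. The main fit was limma 3.58.1 in R 4.3.3 (lmFit, eBayes with trend, two-sided) on log2(signal + 1), with 7 class means and log2 depth as covariate, and Benjamini-Hochberg adjustment over the 5087 targets at 0.05. Fold changes on this scale can understate those of low genes. For genes at the floor they also carry differences in the factor, since 1 count was worth 0.288 to 3.74 units of signal. The fit was tested on simulated data. With no change simulated it made false calls, most of them in naive interface against naive stroma and a few in the comparison of naive within tumour with naive interface, of relapse with naive interface, and in the difference between stages; adjusted p-values are too small there. Pieces of tissue are clusters of segments with gaps under 8000 scan units on a slide. Alternatives were counts rescaled to the median depth, no filter, a pseudocount of 0.5, no depth covariate, the piece as a random block, the plate as a covariate, and each piece left out. Leaving out the segment with most counts of a gene was added after seeing the data.

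The 34 genes, the other lists and the comparisons were chosen with earlier results of these data known. The 7 tested members were named in full, the others by counts. Gene positions are from RefSeq on GRCm38, where 34 of 34 symbols matched. No sequence is shown, since probe sequences were not used here.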

Additional observations from a re-analysis of the deposited data

Results flagged for a closer look

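The interface to stroma difference of Ptges was larger in relapse than in naive by 0.83 (log2, limma adjusted p = 0.0364), and the test of that difference itself drew attention to it. In acute stroma, with 9 segments, 1 Alox15 signal of 11.2 stood apart from the next of 3.74. In the same class 1 Ptges signal of 5.88 stood apart from the next of 3.74, and 1 segment had 6.55 counts of the 34 genes per 10000 where the next lowest had 10.9. The distances of these 3 values exceeded Dixon's critical value, which chance exceeds in about 1 of 20 groups; 8 groups were checked. For Alox15 and Ptges the signal of 1 count reaches 3.74 in this class. As a share of depth the flagged Ptges segment had 0.899 per 10000, below the 0.945 of another acute stroma segment. The low share of the 34 genes came from 2 counts at a depth of 3054.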

How the results depend on the processing

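With 34 genes near background, few counts decide each value, and naive piece 4 and relapse piece 3 hold much of their slides. The Alox5ap call in naive interface against naive stroma left 0 members called with counts rescaled to equal depth and with the piece as a block. The Ptges call between stages left 0 with rescaled counts, without the filter (0.83, limma adjusted p = 0.0912) and with the block. Without the depth covariate, 1 member (Ptges) passed in relapse interface against naive interface. Without the filter, Alox5ap was at limma adjusted p = 0.0632, and Acsl4 was the 1 member called. Leaving out each piece gave 0 to 1 members called in these 3 comparisons and 0 in the other 6. Alox5ap turned to -0.021 within naive tumour against naive interface with rescaled counts, and to -0.036 (rescaled) and -0.017 (plate) in relapse interface against naive interface.

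Leaving out pieces moved Ptges from -0.62 (called, without naive piece 2) to 0.13 in naive interface against naive stroma and from -0.22 to 0.38 within naive tumour against naive interface, both turning sign without naive piece 4. It moved Alox5ap from -0.35 to 0.17 in relapse interface against relapse stroma and from -0.0027 to 0.62 in relapse stroma against acute stroma, both turning without relapse piece 2. For the other 5 tested members 0 of 900 alternative values passed, and 79 changed sign. The pooled shares of the 34 genes moved by less than the SD between segments without the deepest segment and with the floor kept. The order of the classes turned with the floor kept, which draws shallow classes towards the share of average targets. In an alternative chosen after seeing the data, 16 of 47 class shares of tested members moved by over 1.5 times without the segment with most counts, 15 of them from 9 counts or fewer and the other that of Hpgd in acute stroma.

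All targets called in naive interface against naive stroma went from 546 to 46 with rescaled counts and to 67 without naive piece 4; those in the difference between stages went from 180 to 2, to 93 without the filter, to 81 with the block and to 10 without that piece. Relapse interface against naive interface went from 74 to 497 without the depth covariate, 46 without the filter, 27 with the block, 11 rescaled, 7 without naive piece 4 and 4 with the plate, and relapse stroma against naive stroma from 82 to 2 with the plate and 6 without relapse piece 3. Within naive tumour against naive stroma it went from 206 to 106 (rescaled), 134 (no filter) and 62 (without naive piece 4), in relapse stroma against acute stroma from 50 to 30, 25, 78 (no depth covariate) and 9 (without relapse piece 3), and in acute stroma against naive stroma from 6 to between 0 and 54. The cause of these moves was not tested. A planned edgeR test was not run, because the deposited matrix holds normalised signal in 1 column over segments with different factors and was not accepted as counts. The labels give no replicate numbers shared between classes, so that no fit with them as a block was made; the piece of tissue is the block used.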
